A study of Mus musculus with 12 samples.

Results

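The genes described here are 37 genes that mark endothelial cells, the cells that line blood vessels, or that serve the barrier between the blood and the neural retina. They were taken from the table by gene symbol, as pan-endothelial and barrier genes with the genes of sprouting tip cells left out, and the rule itself uses no expression value. All 37 were among the 35976 genes of the deposited count table, and all had at least 1 read in at least 1 of the 12 libraries. In every library, 21 of the 37 genes had more than 3 reads, 15 passed that limit in some libraries only, and Sox18 passed it in none. Across the whole table, 12327 genes, or 34.3%, had more than 3 reads in every library.

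The vessels of the mouse retina grow after birth. In oxygen-induced retinopathy (OIR), high oxygen makes the young vessels regress, and the return to room air leaves the retina with too little oxygen, after which vessels regrow in an irregular way. Retinal endothelial cells are joined by adherens and tight junctions, take up nutrients through selective transporters and pump foreign compounds back into the blood, which together form the inner blood-retina barrier. Genes shared by all endothelial cells report on the vessel bed as a whole, while transporter and junction genes report on its barrier properties.

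Whole retinas of mouse pups labelled C57BL/6 with genotype WT, or Casp1 KO (caspase-1 knockout), were sequenced after normoxia or OIR, with 3 libraries in each of the 4 groups. The WT pups with OIR were kept in 75% oxygen between postnatal days 7 and 12, and their retinas were taken at postnatal day 15, after 3 days of room air. WT controls of equal age had only room air (21% oxygen). The labels give 3 days after OIR for the Casp1 KO pups as well, but their background strain, their oxygen level and their age are not given in the sources used here. The number of pups per library is not given either, so p-values rest only on spread between these libraries, which may be technical. They equal the normal tail of the log2 fold change over its standard error, with no allowance for only 3 libraries per group. Such a test takes the spread almost wholly from all genes together. A small p-value therefore does not show that a gene's own libraries lay close together. The libraries capture 1 stretch near the 3' end of each mRNA, so levels need no correction for length, although capture can still differ between genes. Levels are given as CPM, a gene's reads scaled to the library total after trimmed mean of M-values (TMM) normalization. In whole retina, fewer endothelial cells and less RNA per endothelial cell cannot be told apart.

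Libraries held 3391203 to 5657873 reads, except WT normoxia replicate 2 with 22815830. Casp1, the gene named in the knockout label, had 7 reads in all over the 6 libraries labelled WT (0 to 3 each) and 126 over the 6 labelled Casp1 KO (10 to 45 each), which goes against the labels. Whether these 3' reads lie in the deleted part of the gene is not given in the sources used here. Groups are therefore given as the libraries labelled WT and the libraries labelled Casp1 KO, and every direction between genotypes rests on those labels. The 10 rod photoreceptor genes listed summed to between 40851 and 49545 CPM in every library. WT OIR replicate 3 stood apart, and not in the vessel genes alone. It held the highest rod sum of all libraries, 49545 CPM. It also held the lowest sum of 8 lens genes, 216 CPM, against 459 and 371 in the rest of its group. The 35 members other than Slc16a1 and Podxl summed to 165.9 CPM there, against 336.7 and 386.8 in the other 2 libraries of its group and 197.4 to 226.3 in WT normoxia. The 7 red blood cell genes moved with that sum, at 90.9 CPM in WT OIR replicate 3 against 277.9 and 398.0, and their part in the results was not tested. Calls gained or lost without this library are given with the results.

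Promoters are shown first for 4 members that changed or differed in a test below. They are Cd34 (higher in OIR), Ly6c1 (lower in OIR), Slco1a4 (lower in OIR in the libraries labelled Casp1 KO) and Emcn (an OIR effect that differed between the genotypes). RefSeq promoters of GRCm38.p6 could be matched by symbol to 20 of the 37 members. Each sequence is the 250 bases before the annotated start, read on the gene's strand from 5′ to 3′. Where a symbol had several starts, the most upstream one was used. Capitals mark the 6-base words of the ETS factors, a family that includes the endothelial factor ERG, searched as AGGAAG and CGGAAG on both strands (CTTCCT and CTTCCG where the word lies on the other strand). The windows are chr1:194938571-194938820 on the plus strand for Cd34, chr15:75048838-75049087 on the minus strand for Ly6c1, chr6:141856221-141856470 on the minus strand for Slco1a4, and chr3:137340828-137341077 on the plus strand for Emcn.
Cd34: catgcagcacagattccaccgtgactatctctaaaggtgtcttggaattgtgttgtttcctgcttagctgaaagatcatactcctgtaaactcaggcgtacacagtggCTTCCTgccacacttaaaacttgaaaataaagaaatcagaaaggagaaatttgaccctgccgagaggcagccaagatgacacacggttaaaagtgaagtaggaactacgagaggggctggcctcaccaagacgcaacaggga
Ly6c1: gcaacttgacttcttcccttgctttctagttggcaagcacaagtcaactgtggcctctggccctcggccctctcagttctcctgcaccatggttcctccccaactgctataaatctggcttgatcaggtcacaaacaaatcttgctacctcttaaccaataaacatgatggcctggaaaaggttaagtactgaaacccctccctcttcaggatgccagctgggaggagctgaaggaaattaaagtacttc
Slco1a4: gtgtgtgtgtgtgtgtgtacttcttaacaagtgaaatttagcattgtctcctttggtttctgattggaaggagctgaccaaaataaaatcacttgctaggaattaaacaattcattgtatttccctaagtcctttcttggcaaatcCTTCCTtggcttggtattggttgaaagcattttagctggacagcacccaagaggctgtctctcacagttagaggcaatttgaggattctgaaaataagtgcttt
Emcn: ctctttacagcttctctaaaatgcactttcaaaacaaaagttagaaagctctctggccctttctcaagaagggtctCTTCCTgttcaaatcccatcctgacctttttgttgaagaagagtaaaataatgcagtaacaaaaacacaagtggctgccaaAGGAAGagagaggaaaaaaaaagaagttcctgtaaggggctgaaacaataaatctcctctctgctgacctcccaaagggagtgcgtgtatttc

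The Cd34 window held 1 ETS word, 142 to 137 bases before the start, and the Slco1a4 window held 1, at 104 to 99 bases. The Emcn window held 2, at 174 to 169 and 93 to 88 bases. The SOX words ATTGTT and ATTGTC and the hypoxia response words ACGTG and GCGTG were also searched on both strands. Emcn held 1 SOX word (50 to 45 bases) and 1 hypoxia response word (11 to 7 bases), and Slco1a4 held 2 SOX words (208 to 203 and 145 to 140 bases). Cd34 held neither kind, and the Ly6c1 window held none of the words searched. Over the 20 matched members, ETS words lay in 10 promoters (50.0%), against 39.0% of 27025 promoters of the same length. SOX words lay in 5 (25%), against 16.3%, and hypoxia response words lay in 7 (35%), against 38.6%. One of the 10 promoters with ETS words is that of Abcb1a (chr5:8566841-8567090, 2 words). It lies far upstream of the gene's start in GENCODE vM21, at base 8660077, so it may not be the promoter in use. The ACGTG word can overlap its own reverse complement, and a match is a string of letters rather than a site known to be bound.

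In the libraries labelled WT, 4 members were higher in OIR, 1 was lower and 32 did not pass. In edgeR's quasi-likelihood test, 5 of the 37 members had an adjusted p under 0.05, against 3.88% of all 22853 genes tested. They were 4 higher (Pecam1, Vwf, Cd34 and Cd93), against 1.58% of all genes, and 1 lower (Ly6c1), against 2.29%. No member of the transporter, receptor or transcription factor groups (6, 6 and 5 genes) passed. These are too few genes to set 0 calls apart from the 3.88% of all genes. The median log2 fold change over the 37 members was 0.46, and over all genes tested it was 0.04. The 3 libraries of each group did not overlap for 4 members, against 16.7% of all genes. Of these, 3 were higher (Pecam1, Cd93 and Mmrn2; 8.53% of all genes) and 1 was lower (Ly6c1; 8.16%).

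In the libraries labelled Casp1 KO, 4 of 36 members tested passed, against 4.64% of all 22387 genes. Cd93 was the only one higher (2.61% of all genes), while Ptprb, Slco1a4 and Ly6c1 were lower (2.03%). The median over the members was 0.06, and the median of all genes was 0.00 to 2 decimals. Groups did not overlap for 10 members, against 17.1% of all genes. Of these, 6 were higher (Egfl7, Vwf, Cd34, Cd93, Slc16a1 and Rasip1, against 8.56%) and 4 were lower (Emcn, Ptprb, Slco1a4 and Ly6c1, against 8.58%). With both genotypes in one fit, 6 of 37 members passed, against 4.89% of 24484 genes. Pecam1 (0.88), Vwf (2.83), Cd34 (1.49) and Cd93 (1.47) were higher, against 2.32% of all genes, and Ptprb (-0.67) and Ly6c1 (-2.71) were lower, against 2.57%. Cd34, Cd93 and Ly6c1 passed this test with each library left out in turn and under the other settings tried. Among the 21 members with more than 3 reads in every library, 12 had a fitted change above 0 in both genotypes, 5 below 0 in both and 4 opposite signs, so that 81.0% shared a direction, against 56.9% of the 12327 genes with that depth.

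**Figure D1:**
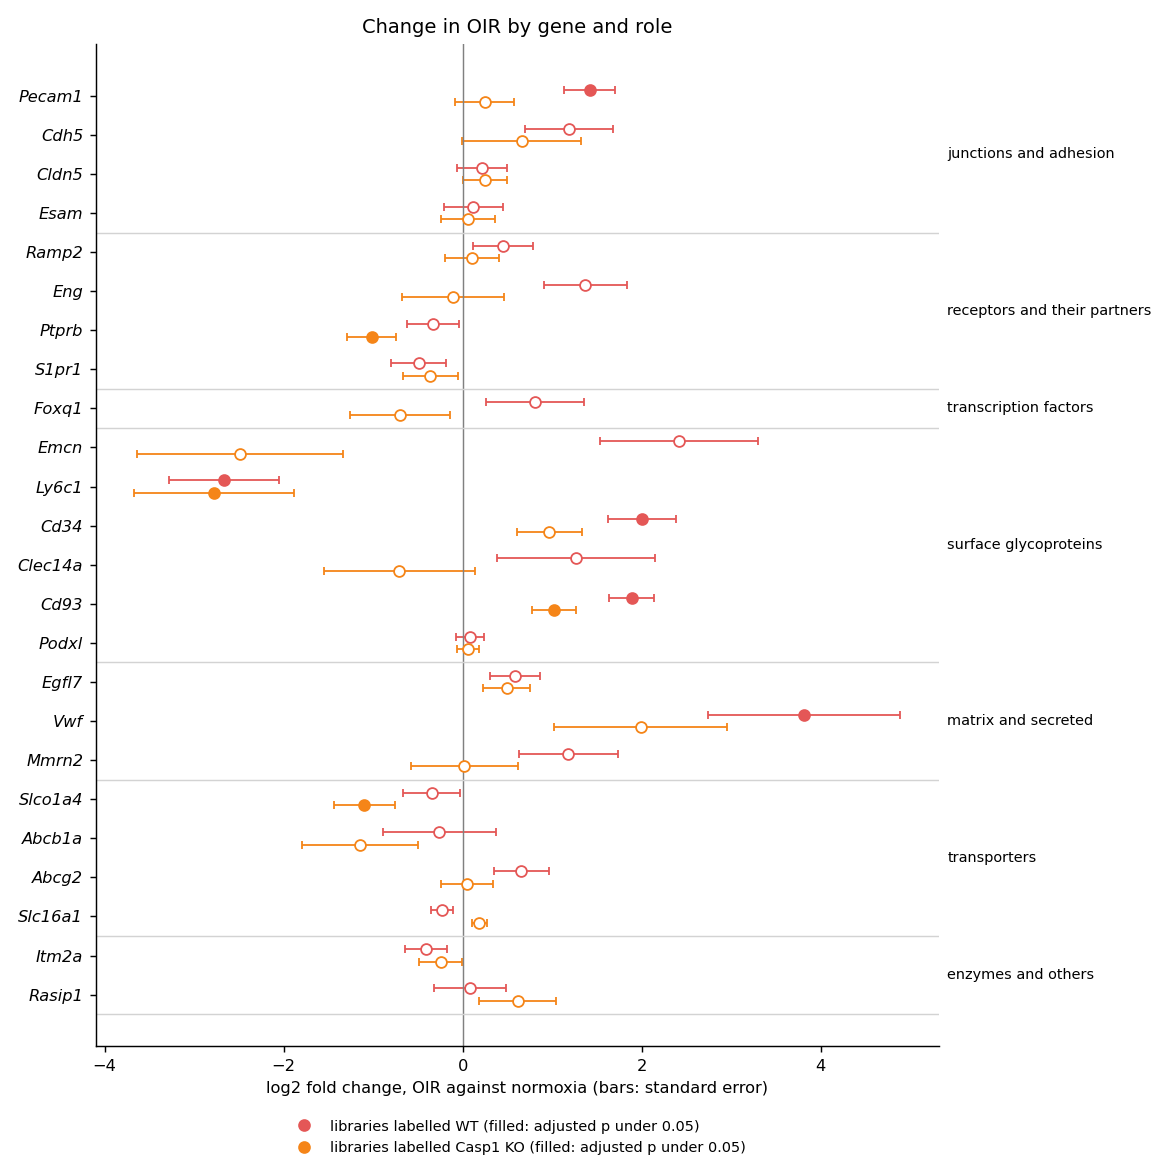
Change in OIR against normoxia (log2 fold change on the x axis, with its standard error as a bar) for the 21 members with more than 3 reads in every library and the 3 members below that depth that passed a test (Emcn, Ly6c1 and Vwf), grouped by role. Filled points had an adjusted p under 0.05: Pecam1, Cd34, Cd93, Vwf and Ly6c1 in the libraries labelled WT, and Cd93, Ptprb, Slco1a4 and Ly6c1 in those labelled Casp1 KO.

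Cd93 codes for a transmembrane glycoprotein of endothelial cells with a role in their adhesion and in vessel growth. It had the clearest change of the members. Its level was 11.9, 9.79 and 8.91 CPM in WT normoxia and 38.0, 58.5 and 17.8 CPM in WT OIR. In the libraries labelled Casp1 KO it was 14.95, 13.7 and 12.8 CPM in normoxia and 25.8, 29.8 and 28.0 CPM in OIR. All 6 OIR libraries lay above all 6 normoxia libraries. The log2 fold change of Cd93 was 1.89 (SE 0.25, adjusted p = 3.50e-11, edgeR) in the libraries labelled WT and 1.02 (SE 0.25, adjusted p = 0.00209) in those labelled Casp1 KO. The difference between these effects was -0.89 (SE 0.35) and did not pass (adjusted p = 0.281). Without WT OIR replicate 3 the WT change was 2.24, and Cd93 then also passed the tests of that difference and of Casp1 KO against WT in OIR. Leaving out WT OIR replicate 2 instead gave a WT change of 1.43.

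Cd34, a sialomucin of endothelial and blood stem cells, followed Cd93 in direction. Its level was 4.62, 4.01 and 3.04 CPM in WT normoxia and 23.3, 20.99 and 3.82 CPM in WT OIR. It was 6.199, 4.94 and 8.69 CPM in Casp1 KO normoxia and 10.005, 10.7 and 17.9 CPM in Casp1 KO OIR. WT OIR replicate 3 fell among the normoxia libraries, and the Casp1 KO groups did not overlap. Cd34 changed by a log2 fold change of 2.01 (SE 0.38, adjusted p = 1.99e-05) in WT and 0.97 (SE 0.36, adjusted p = 0.115) in Casp1 KO, both in edgeR's quasi-likelihood test. An annotated gene on the opposite strand, Gm16897, overlaps Cd34, and whether the counting used strand is not given in the sources used here.

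Ly6c1, a GPI-anchored Ly-6 family protein found on endothelial cells and on some monocytes, went the other way in both genotypes. It had 29, 228 and 27 reads (5.15, 10.1 and 5.87 CPM) in WT normoxia and 4, 7 and 6 reads (0.98, 1.29 and 1.09 CPM) in WT OIR. In the libraries labelled Casp1 KO it had 19, 19 and 15 reads in normoxia and 0, 8 and 0 in OIR. None of the 6 OIR libraries reached the lowest normoxia library, which had 3.46 CPM. Scaled to total reads, the ratio of OIR to normoxia was 0.132 in WT (95% counting interval 0.0759 to 0.215) and 0.141 in Casp1 KO (0.0581 to 0.299), with intervals that cover counting error only. The log2 fold change of Ly6c1 was -2.67 (SE 0.62, adjusted p = 0.00109) in WT and -2.78 (SE 0.89, adjusted p = 0.0434) in Casp1 KO with edgeR. The Casp1 KO call was lost in DESeq2 (adjusted p = 0.0851) and without any one library other than OIR replicate 2 (adjusted p up to 0.214), and without OIR replicate 2, the only one with reads, the change was -7.24. The WT call was lost without the deep library, WT normoxia replicate 2, with a change of -2.27 (adjusted p = 0.0949). Its close relative Ly6c2 had 2 reads in all, and Ly6a, another Ly-6 member, had log2 fold changes of -0.09 and -0.16, neither of which passed.

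**Figure D2:**
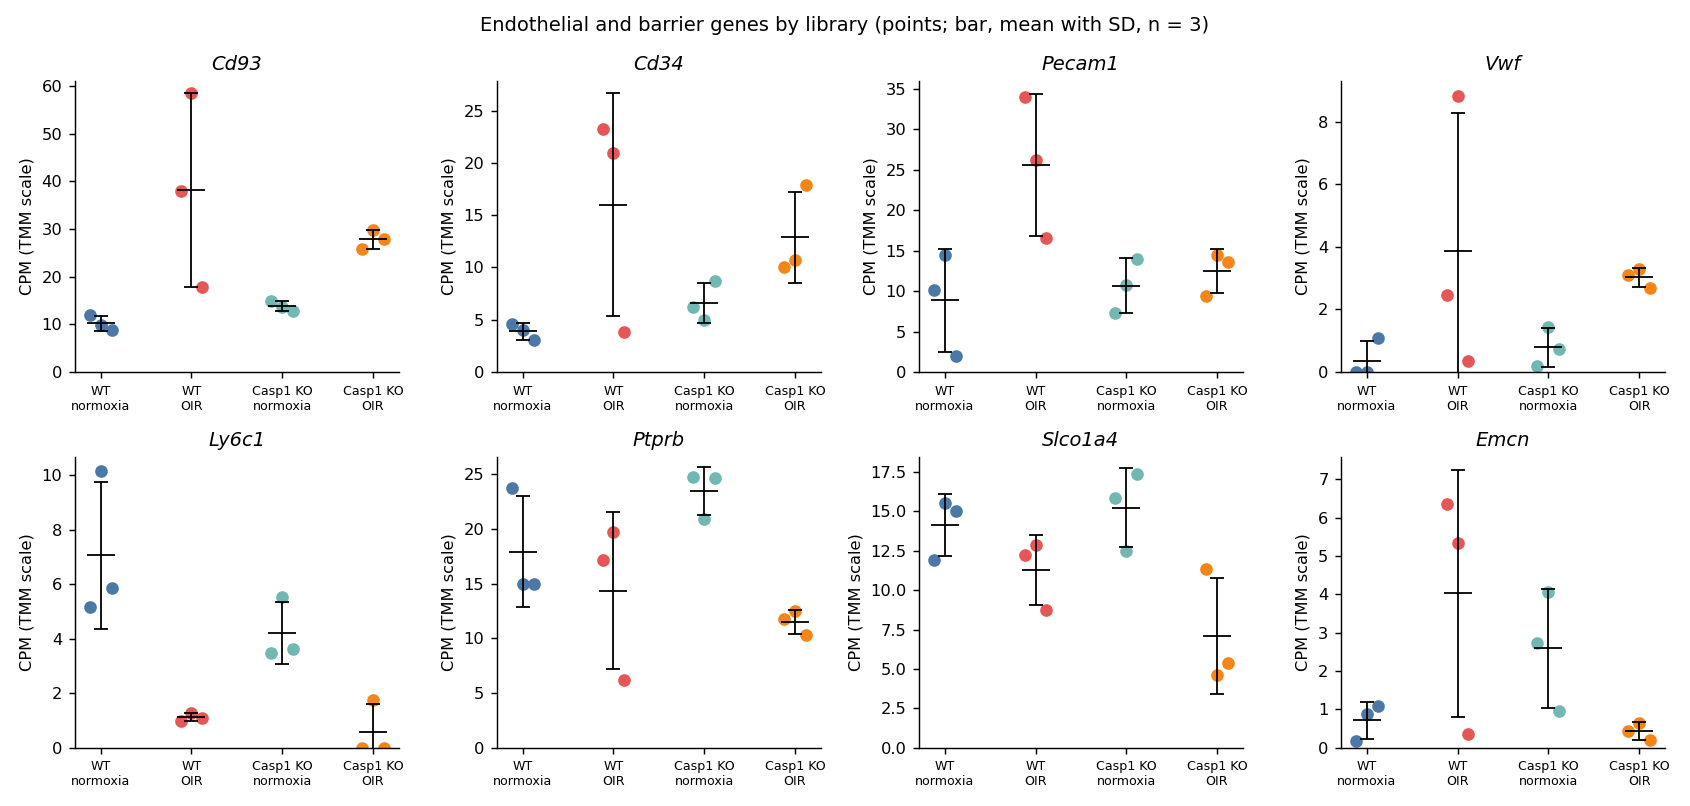
Level of 8 members in each library (CPM on the TMM scale, y axis from 0) by group, with the mean and SD of 3 libraries as bars, drawn from 0 where the SD is larger than the mean. Cd93 in all 6 OIR libraries lies above all normoxia libraries, Ly6c1 lies below them, and the lowest WT OIR point for Cd93, Cd34, Pecam1, Vwf, Ptprb, Slco1a4 and Emcn is replicate 3.

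Of the other surface glycoproteins, Emcn (endomucin, a sialomucin of capillary and venous endothelium) differed most between the genotypes. It had 1, 20 and 5 reads in WT normoxia (0.178, 0.89 and 1.09 CPM) and 26, 29 and 2 reads in WT OIR (6.37, 5.34 and 0.363 CPM). In the libraries labelled Casp1 KO it had 15, 14 and 4 reads in normoxia (2.73, 4.07 and 0.966 CPM) and 2, 3 and 1 reads in OIR (0.445, 0.657 and 0.206 CPM). The WT groups overlapped through replicate 3 of OIR, and the Casp1 KO groups did not overlap. Its log2 fold change was 2.41 (SE 0.88, adjusted p = 0.114) in WT and -2.48 (SE 1.15, adjusted p = 0.285) in Casp1 KO, so neither passed edgeR's test alone. The difference between them, -4.94 (SE 1.41), passed with an adjusted p of 0.0436, the only 1 of 37 members to do so, against 1.13% of all 24484 genes. In reads scaled to the totals, the ratio of OIR to normoxia was 4.84 in WT (95% counting interval 3.00 to 8.02) and 0.170 in Casp1 KO (0.0584 to 0.412). The call on the difference was lost without any single library other than WT normoxia replicates 2 and 3, WT OIR replicate 3 and Casp1 KO normoxia replicate 3, with adjusted p up to 0.216. It was also lost when the replicate number entered as a block (adjusted p = 0.134) and with filterByExpr, a stricter filter on low counts (adjusted p = 0.0858). Without WT OIR replicate 3, the WT change of Emcn was 2.96 (adjusted p = 0.0116).

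Podxl and Clec14a complete the surface glycoproteins. Podxl codes for podocalyxin, a sialomucin that other retinal cells also make, and was the second most abundant member. Its level was 91.1, 74.3 and 86.5 CPM in WT normoxia, 72.7, 85.6 and 109 CPM in WT OIR, 83.0, 96.4 and 96.4 CPM in Casp1 KO normoxia and 103.4, 89.3 and 91.5 CPM in Casp1 KO OIR. The groups overlapped in both genotypes, with log2 fold changes of 0.08 (95% interval -0.22 to 0.38) in WT and 0.06 (-0.18 to 0.30) in Casp1 KO. Clec14a, a C-type lectin of vessel sprouts, had fitted changes of 1.27 in WT and -0.71 in Casp1 KO, and neither passed.

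Among the junction genes, Pecam1 differed by condition in WT and by genotype in OIR. Pecam1 codes for CD31, an adhesion molecule at endothelial cell contacts. Its level was 10.1, 14.5 and 1.957 CPM in WT normoxia and 34.0, 26.1 and 16.5 CPM in WT OIR. It was 7.29, 10.7 and 14.01 CPM in Casp1 KO normoxia and 9.34, 14.5 and 13.6 CPM in Casp1 KO OIR. The WT groups did not overlap, while the Casp1 KO groups lay over each other, and WT normoxia replicate 3 was the lowest library, with 9 reads. Its log2 fold change was 1.42 (SE 0.28, adjusted p = 5.64e-05) in WT and 0.25 (SE 0.33, adjusted p = 0.737) in Casp1 KO with edgeR. In OIR, Pecam1 was lower in the libraries labelled Casp1 KO by a log2 fold change of -1.03 (SE 0.28, adjusted p = 0.0384), the only 1 of 37 members called in that comparison, against 0.575% of all 22774 genes. The groups did not overlap for that 1 member either, against 11.9% of all genes. The genotype call in OIR was lost without any single library except WT OIR replicate 3 (adjusted p up to 0.511), with the block (adjusted p = 0.0558), with filterByExpr (0.249) and with all 12 libraries in one fit (0.0533). The WT call was lost with filterByExpr (adjusted p = 0.0649) and DESeq2 (0.347), and the change was 2.02 without WT normoxia replicate 2. Over both genotypes, the Pecam1 call (adjusted p = 0.00324) was lost without WT normoxia replicate 3 (adjusted p = 0.123) or WT OIR replicate 1 (0.0709), and with filterByExpr (0.0836) and DESeq2 (0.0947). The difference between the OIR effects was -1.20 (SE 0.43) and did not pass with all libraries (adjusted p = 0.194), but it passed without WT OIR replicate 3 or WT normoxia replicate 2.

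Cldn5 codes for claudin-5, the main tight junction protein of barrier endothelium. Its level was 19.5, 14.2 and 13.9 CPM in WT normoxia, 25.5, 26.1 and 4.54 CPM in WT OIR, 23.5, 15.98 and 15.9 CPM in Casp1 KO normoxia and 23.8, 22.8 and 19.5 CPM in Casp1 KO OIR. The groups overlapped in both genotypes, and WT OIR replicate 3 was the lowest of all libraries. Cldn5 had a log2 fold change of 0.22 (95% interval -0.33 to 0.76) in WT and 0.25 (-0.23 to 0.74) in Casp1 KO. Without WT OIR replicate 3 the WT change was 0.70 (adjusted p = 0.134), and without WT OIR replicate 2 it was -0.12. Cdh5, which codes for VE-cadherin of the adherens junction, had changes of 1.19 (adjusted p = 0.198) and 0.66 (adjusted p = 0.671) by edgeR, and in WT it passed only without WT OIR replicate 3. Esam, an endothelial adhesion molecule, Icam2, an adhesion molecule for leukocytes, and Ocln, which codes for occludin of tight junctions, had fitted changes from 0.06 to 1.37 in the 2 genotypes and did not pass. Of the 6 junction genes, 1 passed in WT and 0 passed in Casp1 KO with edgeR, against 3.88% and 4.64% of all genes. In Casp1 KO, 0 had an unadjusted p under 0.05, against 3045 of all 22387 genes.

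Within single libraries, the balance between members also differed by condition. These gene pairs were chosen after the values had been seen, so the ratios are a description. For each read of Ptprb, there were 0.50 to 0.653 reads of Cd93 in the 6 normoxia libraries and 2.19 to 2.97 in the 6 OIR libraries. The ranges did not overlap in either genotype, and WT OIR replicate 3, with 2.88, lay with its group. For each read of Cldn5, there were 0.219 to 0.281 reads of Cd34 in WT normoxia and 0.803 to 0.913 in WT OIR. In the libraries labelled Casp1 KO that ratio was 0.264 to 0.545 in normoxia and 0.421 to 0.916 in OIR, so the ranges overlapped.

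**Figure D3:**
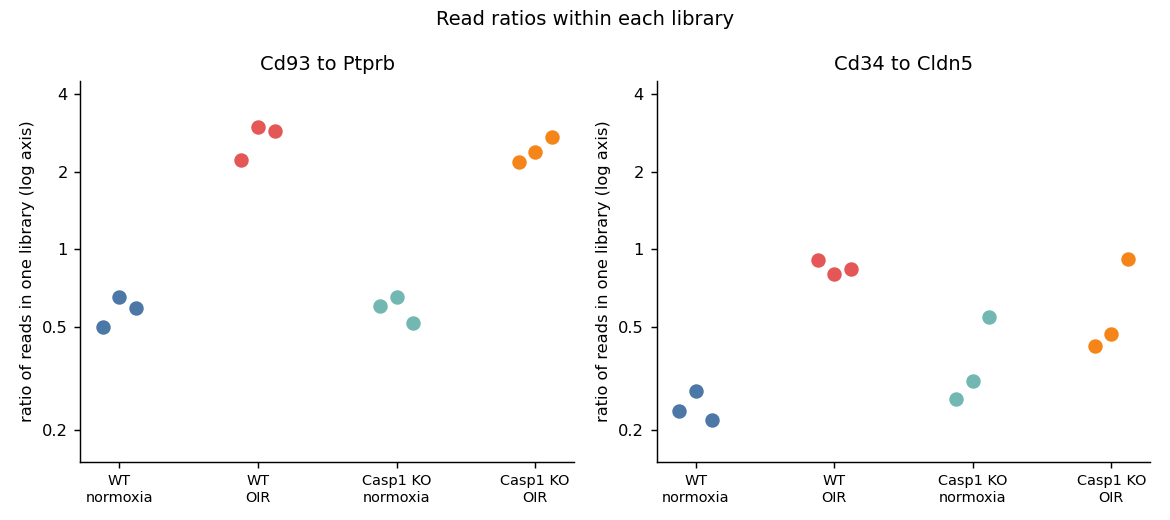
Ratio of reads of 2 genes within each library (log axis) by group, for Cd93 to Ptprb on the left and Cd34 to Cldn5 on the right. Cd93 to Ptprb is at or below 0.653 in all normoxia libraries and at or above 2.19 in all OIR libraries, and Cd34 to Cldn5 separates the WT groups while the Casp1 KO groups overlap.

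The receptors held 1 member called lower in OIR, in the libraries labelled Casp1 KO and over both genotypes but not in WT. Ptprb codes for VE-PTP, a phosphatase that dampens signalling by the angiopoietin receptor TIE2 and by VE-cadherin complexes. Its level was 23.8, 14.997 and 15.003 CPM in WT normoxia and 17.1, 19.7 and 6.18 CPM in WT OIR, and it was 24.8, 20.9 and 24.6 CPM in Casp1 KO normoxia and 11.8, 12.5 and 10.3 CPM in Casp1 KO OIR. The WT groups overlapped, and each Casp1 KO OIR library lay below the lowest Casp1 KO normoxia library. Ptprb had a log2 fold change of -0.33 (SE 0.29, adjusted p = 0.635) in WT and -1.01 (SE 0.27, adjusted p = 0.00739) in Casp1 KO with edgeR. The difference between them, -0.71 (SE 0.40), did not pass (adjusted p = 0.572). Without WT OIR replicate 3 the WT change was 0.04, and without Casp1 KO normoxia replicate 1 the Casp1 KO change was -0.98 (adjusted p = 0.051). Over both genotypes, the Ptprb call (adjusted p = 0.0279) was lost without WT normoxia replicate 1, WT OIR replicate 3 or any library labelled Casp1 KO other than normoxia replicate 2 (adjusted p up to 0.149), and with filterByExpr (0.0703) and DESeq2 (0.0862). The annotated genes Gm47625 and Gm26495 overlap Ptprb on the same strand.

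Eng codes for endoglin, a co-receptor for ligands of the TGF-beta family. It stood at 4.97, 2.76 and 3.26 CPM in WT normoxia and at 12.7, 12.7 and 2.91 CPM in WT OIR, with a log2 fold change of 1.37 that did not pass (SE 0.47, adjusted p = 0.0729, edgeR), and it passed without WT OIR replicate 3. In Casp1 KO the change of Eng was -0.10. Ramp2, the partner of the adrenomedullin receptor, had changes of 0.46 and 0.11, and S1pr1, a receptor for sphingosine-1-phosphate that stabilizes vessels, had -0.49 and -0.36. The angiopoietin receptor Tek and its relative Tie1 were near the limit of these libraries, at 0 to 4.60 CPM, with fitted changes from -0.27 to 0.86. Of the 6 receptor genes, 0 passed in WT (1 with an unadjusted p under 0.05) and 1 passed in Casp1 KO. Of all genes, 3.88% and 4.64% passed, and 2877 of 22853 had an unadjusted p under 0.05 in WT.

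Of the secreted and matrix genes, Vwf rose in WT. Vwf codes for von Willebrand factor, a clotting protein stored in endothelial cells. It had 0, 0 and 5 reads in WT normoxia and 10, 48 and 2 reads in WT OIR. The 0 of the deep library has an upper limit of about 0.134 CPM at the 95% level, for counting error only. It had 1, 5 and 3 reads in Casp1 KO normoxia and 14, 15 and 13 in Casp1 KO OIR. The Casp1 KO groups did not overlap, and the WT groups did, since WT OIR replicate 3 (0.363 CPM) lay below WT normoxia replicate 3 (1.09 CPM). The log2 fold change of Vwf was 3.82 (SE 1.08, adjusted p = 0.0151) in WT and 1.99 (SE 0.97, adjusted p = 0.326) in Casp1 KO with edgeR, and 2.83 (SE 0.72, adjusted p = 0.0036) over both genotypes. In WT the call was lost without WT OIR replicate 2 (2.04, adjusted p = 0.777), without WT normoxia replicate 1 (3.34, adjusted p = 0.106) or 2 (2.86, adjusted p = 0.104), with the replicate block (4.15, adjusted p = 0.130) and with DESeq2 (3.50, adjusted p = 0.546). Without WT normoxia replicate 3 it was 8.07 and without WT OIR replicate 3 it was 4.45. Over both genotypes the Vwf call was lost without WT OIR replicate 2 (2.05, adjusted p = 0.252) and the change was 3.50 without WT normoxia replicate 3.

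Egfl7, a matrix protein secreted by endothelial cells that hosts a microRNA gene, stood at 16.5, 12.8 and 12.6 CPM in WT normoxia and 21.8, 27.8 and 13.8 CPM in WT OIR, and at 15.7, 13.4 and 17.1 CPM in Casp1 KO normoxia and 22.5, 19.9 and 22.2 CPM in Casp1 KO OIR. It was higher on average in both genotypes, with log2 fold changes of 0.59 (adjusted p = 0.323) and 0.49 (adjusted p = 0.393), and 0.54 (adjusted p = 0.0931) over both, none past the threshold of edgeR's test with all libraries. Without WT OIR replicate 3, Egfl7 passed over both genotypes. Mmrn2, a matrix ligand of CD93, had changes of 1.18 in WT, where its groups did not overlap, and 0.02 in Casp1 KO, and did not pass (adjusted p = 0.321 in WT).

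Among the transporters, 1 was called lower in OIR, in the libraries labelled Casp1 KO only. Slco1a4 codes for an organic anion transporter of brain and retinal capillaries. It stood at 11.9, 15.5 and 15.003 CPM in WT normoxia and 12.2, 12.9 and 8.72 CPM in WT OIR, and at 15.9, 12.5 and 17.4 CPM in Casp1 KO normoxia and 11.3, 4.60 and 5.35 CPM in Casp1 KO OIR. The Casp1 KO groups did not overlap. The log2 fold change of Slco1a4 was -0.35 (SE 0.32, adjusted p = 0.669) in WT and -1.10 (SE 0.34, adjusted p = 0.031) in Casp1 KO with edgeR, and the difference of -0.78 (SE 0.47) did not pass (adjusted p = 0.628). In DESeq2 the adjusted p was 0.0968, and edgeR lost the call without Casp1 KO normoxia replicate 1 or 3 or Casp1 KO OIR replicate 2 or 3, at log2 fold changes from -1.07 to -0.88, and the change was -1.61 without Casp1 KO OIR replicate 1. Over both genotypes Slco1a4 did not pass with all libraries, but it passed without WT normoxia replicate 1, WT OIR replicate 1 or 2, or Casp1 KO OIR replicate 1.

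Slc16a1 codes for MCT1, a carrier of lactate and other monocarboxylates that photoreceptors and the pigment epithelium use as well, and was the most abundant member. It stood at 408, 457 and 416 CPM in WT normoxia, 343, 339 and 415 CPM in WT OIR, 316, 355 and 350 CPM in Casp1 KO normoxia and 399, 367 and 384 CPM in Casp1 KO OIR. In normoxia it was lower in the libraries labelled Casp1 KO, without overlap, by a log2 fold change of -0.32 (SE 0.08, adjusted p = 0.00717, edgeR). It was the only 1 of 36 members called between the genotypes in normoxia, against 1.04% of all 22480 genes. In that comparison 5 of 36 members did not overlap between the groups (Slc16a1 and Ly6a lower, and Cd34, Cd93 and Ramp2 higher in the libraries labelled Casp1 KO), against 12.4% of all genes. That call was lost without WT normoxia replicate 2 or Casp1 KO normoxia replicate 1 (-0.27 in both cases, adjusted p = 0.0985 and 0.131) and when all 12 libraries were fitted together (adjusted p = 0.193). The OIR effect on Slc16a1 was -0.23 in WT and 0.19 in Casp1 KO, and neither passed, although the WT effect passed without WT OIR replicate 3 (-0.33, adjusted p = 0.0193). The annotated genes Gm43581 and Gm43585 overlap Slc16a1 on the same strand.

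Abcb1a codes for P-glycoprotein and Abcg2 for the breast cancer resistance protein, both efflux pumps of the barrier. Abcb1a had changes of -0.26 and -1.15 and Abcg2 had changes of 0.66 and 0.05. None of these passed. Mfsd2a, a carrier of omega-3 lipids that restrains transcytosis in barrier endothelium, and Slc38a5, an amino acid carrier, were low at 0 to 4.36 CPM, with fitted changes below 0 in both genotypes (-0.95 and -0.72 for Mfsd2a, -0.72 and -0.93 for Slc38a5) and none past the threshold. Of the 6 transporters, 0 passed in WT with edgeR (1 with an unadjusted p under 0.05) and 1 passed in Casp1 KO. The shares of all genes that passed were 3.88% and 4.64%, and 2877 of 22853 had an unadjusted p under 0.05 in WT.

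The transcription factors were at the limit of this depth. Erg, an ETS factor of endothelial identity, had 0.182 to 4.52 CPM, and Sox7 and Sox17, SOX factors of vessel development, had 0 to 2.85 CPM. Sox18, the third of that SOX group, had a single read in all libraries, and no fold is given for it. Foxq1, a forkhead factor enriched in brain endothelium, was the only one with more than 3 reads in every library, at changes of 0.81 in WT and -0.70 in Casp1 KO. None of the 5 tested in WT or the 4 tested in Casp1 KO passed (0 had an unadjusted p under 0.05 with edgeR). Since 3.88% and 4.64% of all genes passed, 0 calls among so few genes say little.

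Of the remaining members, Itm2a, a membrane protein enriched in barrier endothelium, was the third most abundant. It stood at 19.004, 33.6 and 34.8 CPM in WT normoxia, 24.98, 25.96 and 15.99 CPM in WT OIR, 22.6, 14.5 and 33.3 CPM in Casp1 KO normoxia and 19.1, 22.99 and 17.1 CPM in Casp1 KO OIR. The groups overlapped, and the changes of -0.41 (95% interval -0.87 to 0.05) and -0.25 (-0.72 to 0.22) did not pass. Rasip1, a regulator of vessel lumen formation, had changes of 0.09 and 0.62 and did not pass. Nos3, the endothelial nitric oxide synthase, and Bmx, a kinase of arterial endothelium, stayed at or below 1.44 CPM in every library and did not pass.

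Between the genotypes, the members' OIR effects lay lower in the libraries labelled Casp1 KO for 28 of 37 members, against 12824 of all 24484 genes. With library size alone as the scaling, it was 29 of 37 members. The median difference was -0.56, while the median over all genes was -0.04. These counts include Sox18, with its single read, and other members with few reads. Over the 21 members with more than 3 reads in every library the median was -0.63, against 0.02 over all genes of that depth. Part of the difference lay in normoxia. There the members were higher in the libraries labelled Casp1 KO than in WT (median 0.26, 25 of 36 above 0). In OIR they were lower (median -0.30, 24 of 37 below 0). The medians of all genes were 0.01 and -0.04. The members share their libraries, so they are not independent of each other. The summed level of the 35 members was 197.4 to 226.3 CPM in WT normoxia, 165.9 to 386.8 in WT OIR, 229.2 to 246.7 in Casp1 KO normoxia and 225.2 to 261.9 in Casp1 KO OIR. The ranges of OIR and normoxia overlapped in both genotypes. Without WT OIR replicate 3, 9 members passed in WT (Cdh5, Emcn, Eng and Slc16a1 in addition), 5 passed between the genotypes in OIR (Cdh5, Emcn, Eng and Cd93 in addition), and 4 passed for the difference between the OIR effects (Pecam1, Cd93 and Slc16a1 in addition). How many of all genes passed in these refits is not reported here, so the gains are not shown to be particular to the members.

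**Figure D4:**
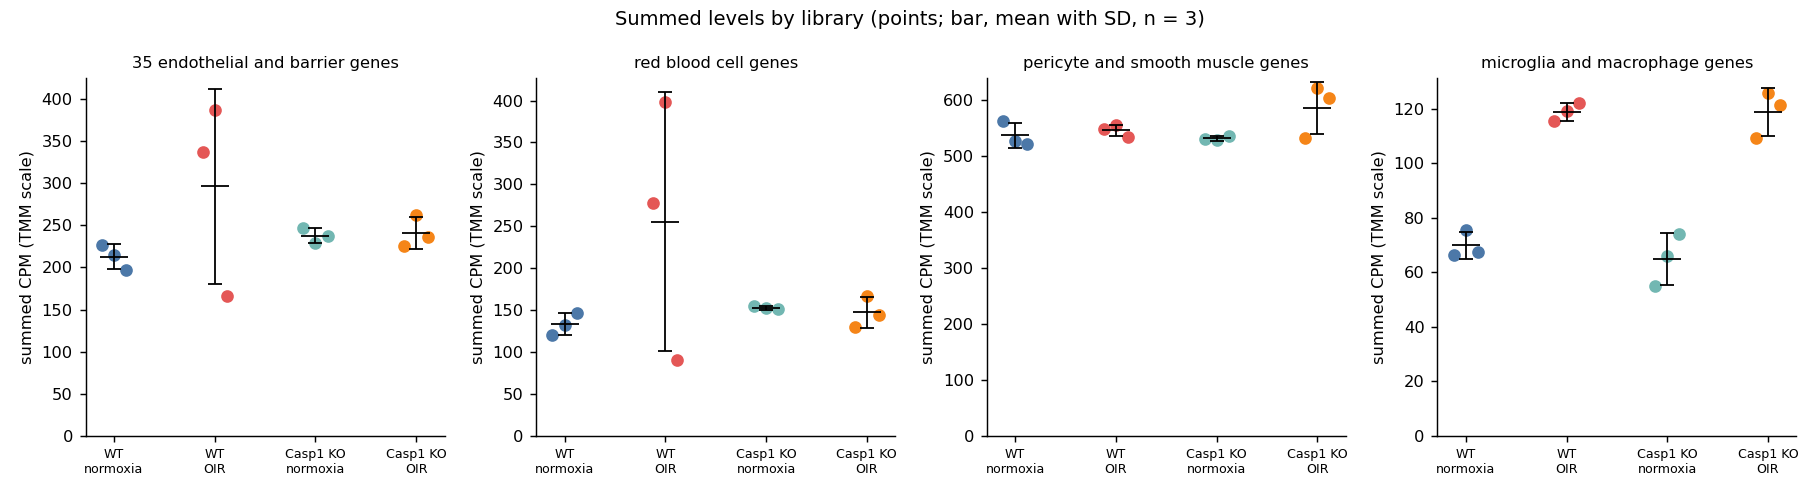
Summed level of 4 gene lists in each library (CPM on the TMM scale, y axis from 0), with the mean and SD of 3 libraries as bars. The sums of 35 members and of red blood cell genes are highest in WT OIR replicates 1 and 2 and lowest in WT OIR replicate 3, while the microglia and macrophage sum is 109 to 126 CPM in all OIR libraries and 54.9 to 75.6 CPM in all normoxia libraries.

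For the lists that follow, the share of all genes called in OIR against normoxia was 3.88% in WT and 4.64% in Casp1 KO. Those shares include many genes with few reads, and the shares among well-counted genes are not reported here. Further barrier genes outside the 37 were listed by function, and 23 of them were in the table. In WT, 1 was higher, Lef1 (2.03), a transcription factor of the Wnt signalling that builds the barrier, and 1 was lower, Spock2 (-0.83), a matrix proteoglycan. In Casp1 KO, 5 were higher and 3 were lower. Among those higher were the tight junction gene Marveld2 (1.97), the glucose carrier Slc2a1 (0.89) and the amino acid carrier Slc3a2 (0.64) with its partner Slc7a5 (1.25). The thyroid hormone carrier Slco1c1 (-1.39), the transferrin receptor Tfrc (-0.46) and Spock2 (-0.45) were lower. These are log2 fold changes with adjusted p under 0.05 in edgeR's test, and several of these genes, Slc2a1 among them, are also made by other retinal cells. The OIR effect on Slc2a1 was higher in the libraries labelled Casp1 KO by 0.76 (SE 0.17, adjusted p = 0.00259).

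Of 24 further endothelial genes, 1 was higher in WT (Adgrl4, an adhesion receptor of vessels, 1.27) and 1 was higher in Casp1 KO (the water channel Aqp1, 0.60). Of the arterial and venous genes, 0 of 11 passed in WT (1 with an unadjusted p under 0.05) and 1 of 10 in Casp1 KO (Nr2f2, a venous factor, 0.40). Of the adhesion molecules of activated endothelium, 0 of 3 passed in either genotype with edgeR (0 in WT and 1 in Casp1 KO with an unadjusted p under 0.05). Only Vcam1 was well counted, at 43 to 295 reads a library, with fitted changes of -0.23 in WT and -0.07 in Casp1 KO. Icam1 had 0 to 8 reads a library, Sele had 0 to 4, and Selp had no read in any group. The lack of calls therefore says little about Icam1, Sele and Selp.

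Markers of other cells moved with OIR beside these genes, where 3.88% of all genes were called in WT and 4.64% in Casp1 KO. Of 12 pericyte and smooth muscle genes, 1 passed in WT and 2 in Casp1 KO, all higher. Acta2, the actin of smooth muscle and contractile pericytes, was higher by 3.42 in WT and 1.92 in Casp1 KO, and Myh11 was higher in Casp1 KO (2.75). Fitted changes lay below 0 for 4 of the 12 in WT and for 5 in Casp1 KO. The sum of the 12 genes was 522 to 563 CPM in normoxia and 533 to 621 in OIR. Microglia and macrophage genes rose, 3 of 12 in WT and 4 of 12 in Casp1 KO, with C1qa (1.07 and 1.65), C1qc (1.40 and 1.38) and Mrc1 (3.34 and 2.94) called in both and C1qb (1.56) in Casp1 KO. Of the red blood cell genes, 4 of 6 rose in WT (the haemoglobin genes Hbb-bs by 0.83, Hba-a1 by 1.43, Hba-a2 by 1.62 and Hbb-bt by 0.73) and 0 of 7 passed in Casp1 KO (1 with an unadjusted p under 0.05, edgeR), where their sum was 130.3 to 167.1 CPM in OIR and 150.7 to 155.3 in normoxia. Pigment epithelium genes (5 of 10 higher, sum 1677 to 1800 against 1090 to 1130 CPM) and lens genes (4 of 8 higher, sum 577 to 671 against 335 to 357 CPM) were higher in Casp1 KO OIR than in Casp1 KO normoxia. The pigment epithelium genes were Dct (0.80), Rpe65 (0.97), Ttr (0.58), Rgr (0.60) and Pmel (0.62), and the lens genes were Cryba1 (1.07), Cryaa (0.81), Bfsp2 (1.54) and Crygs (0.63). Of the defining markers, Tagln had no read in any group, and Mip had reads only in the libraries labelled Casp1 KO. Their part in the results for the endothelial genes was not tested.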

How the data were processed

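The authors extracted retinal RNA with TRIzol, made QuantSeq 3' libraries, sequenced 75-base single reads, aligned them to mm10 with STAR and counted reads per gene with htseq-count; per the labels' processing notes these were STAR 2.7.5a and HTSeq 0.6.1. The deposited table holds those whole-number counts for 12 libraries, without normalization, and 0 of its entries name no gene. The gene annotation and the strand setting are not given in the sources used here, so counts are uncertain for the 9 members that another gene overlaps on the opposite strand and the 7 overlapped on the same strand in GENCODE vM21. Groups came from the labels, and library totals ran from 3391203 to 22815830 reads. At the 95% level, a count of 0 has an upper limit of about 3 expected reads, or 0.134 to 0.871 CPM, for counting error only.

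The quasi-likelihood test of edgeR 4.0.16 (R 4.3.3) was run on genes with 1 or more reads in the libraries fitted, after TMM scaling and with a prior count of 0.125. P-values were adjusted by Benjamini and Hochberg's method over all genes tested, and 0.05 was the limit for a call. Each comparison of 2 groups used its own 6 libraries, and the difference between OIR effects and the effect over both genotypes used all 12. Standard errors are the log2 fold change divided by the square root of the F statistic, and 95% intervals are 1.96 standard errors wide on each side. Both rest on a spread shared over genes, so a gene's own spread between libraries counts little in them. Counting intervals for ratios of reads are exact and conditional on their sum. On simulated counts for 21895 genes of the WT comparison, the fit recovered 55% of genes changed by 1 and 83% of those changed by 2 on the log2 scale, with 8 false calls. The 200 changed genes were drawn only from genes with a higher mean read count, and no simulated library stood apart. These shares therefore do not apply to members with few reads.

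The members are given by symbol, but they and the lists and tests were chosen with earlier results of these data known. Values in every library are given for members with an adjusted p under 0.05 in any of the 6 comparisons and for the 6 members with the highest mean CPM; Eng was added after its values had been seen. Of the other lists, genes with an adjusted p under 0.05 are named for the comparisons printed, at most 5 a list, smallest p first, except that 7 of the 8 barrier genes called in Casp1 KO are named. Some results are not reported here. Same-numbered libraries did not deviate together (correlations of -0.0606 to 0.0873 over 9428 genes in the pairs of groups compared), so the numbers were not taken to pair the libraries. Alternatives were DESeq2 1.42.0, its size factors or library size alone in place of TMM, filterByExpr as the filter, a block for the replicate number, a joint fit to all 12 libraries, and leaving out each library in turn.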

Additional observations from a re-analysis of the deposited data

Results flagged for a closer look

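Emcn (endomucin) is listed here because its OIR effect differed between the genotypes in a test of that difference itself. The OIR effect in the libraries labelled Casp1 KO minus that in the libraries labelled WT was -4.94 on the log2 scale (SE 1.41, adjusted p = 0.0436, edgeR's quasi-likelihood test over all 12 libraries). It rests on 57 reads in WT OIR, 26 in WT normoxia, 33 in Casp1 KO normoxia and 6 in Casp1 KO OIR, summed over 3 libraries each. A fall in every Casp1 KO OIR library and a rise in 2 of the 3 WT OIR libraries make up the difference, since WT OIR replicate 3 had 2 reads. The libraries labelled Casp1 KO held more Casp1 reads than those labelled WT, so the direction between genotypes rests on the labels.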

How the results depend on the processing

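Of the 37 members, Cd93 passed in both genotypes and Cd34 passed in WT under every setting tried. DESeq2 and the filterByExpr filter each left 3 of the 5 WT calls, both without Pecam1 and Vwf. DESeq2 left 2 of the 4 Casp1 KO calls. The cause of these changes was not tested. The normoxia call between genotypes (Slc16a1) went to 0 in the fit to all 12 libraries. The OIR call between genotypes (Pecam1) went to 0 with filterByExpr, with the replicate block and with all 12 libraries in one fit; DESeq2 gave Pecam1 no adjusted p there. The call on the difference between OIR effects (Emcn) went to 0 with filterByExpr and with the replicate block.

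The replicate numbers did not pair the libraries: 2, 2, 0 and 3 of 6 libraries correlated best with their own number in the 4 comparisons of 2 groups. With the number as a block, the calls were 4 in WT (Vwf lost), 4 in Casp1 KO, 1 and 0 between the genotypes in normoxia and OIR, and 0 for the difference.

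With each library left out in turn, the calls ran from 3 to 9 in WT, from 1 to 3 in Casp1 KO, from 0 to 1 and from 0 to 5 between the genotypes in normoxia and OIR, from 0 to 4 for the difference and from 5 to 6 over both genotypes. The lowest WT count came without the deep WT normoxia replicate 2, the lowest Casp1 KO count without Casp1 KO normoxia replicate 1, and the highest counts of 9, 5 and 4 without WT OIR replicate 3. The share of all genes called in each of these refits is not reported here. Log2 fold changes that turned sign were all of uncalled genes. Itm2a in Casp1 KO ran from -0.49 to 0.085 and Podxl from -0.017 to 0.10. In WT, Cldn5 ran from -0.12 to 0.70, Podxl from -0.084 to 0.20 and Ptprb from -0.64 to 0.043. Of 252 single-gene values with a library left out, 203 kept their direction and side of the threshold, 39 lost the call, 2 gained it and 8 turned sign; of 198 under the other settings, 182 kept both and 16 lost the call.

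Depth limits the transcription factors most: 16 members had 3 reads or fewer in at least 1 library.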

Other observations

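Genes of glia and rods also changed in OIR. Of all genes, 3.88% were called in WT, 4.64% in Casp1 KO and 1.13% for the difference between OIR effects. Those shares include many genes with few reads. The astrocyte genes Gfap and Gja1 were higher in both genotypes, Gfap by 1.62 in WT and 2.31 in Casp1 KO and Gja1 by 1.32 and 1.16 on the log2 scale (adjusted p under 0.05 with edgeR), and S100b fell in Casp1 KO (-0.49). The other 4 genes in WT and 3 in Casp1 KO did not pass. The summed level of 6 astrocyte genes was 112 to 137 CPM in the normoxia libraries and 174 to 216 CPM in the OIR libraries. Of the 10 Muller glia genes, 4 passed in WT, where Vim rose (0.97) while Glul (-0.70), Rlbp1 (-0.73) and Aqp4 (-0.87) fell. In Casp1 KO 8 of 10 rose, of which Vim (1.32), Apoe (0.92), Clu (0.75), Sox9 (1.07) and Glul (0.41) had the smallest p. The test of the difference between OIR effects was passed by 5 of the 10, all higher in Casp1 KO (Glul by 1.09, Rlbp1 by 0.99, Clu by 0.87, Apoe by 0.78 and Dkk3 by 0.76). Of 10 rod genes, 2 passed in WT (Nr2e3 0.50 and Gngt1 -0.38) and 5 in Casp1 KO, among them Nrl (0.40), Sag (-0.26), Nr2e3 (0.26) and Rom1 (0.23). In WT, the pigment epithelium genes Pmel (0.80) and Dct (0.41) rose and Lrat (-0.84) fell, while 0 of 7 lens genes passed with edgeR (1 with an unadjusted p under 0.05). The OIR effect was higher in the libraries labelled Casp1 KO for 2 pigment epithelium genes (Rpe65 by 0.86 and Lrat by 1.22) and 3 lens genes (Cryaa by 0.84, Cryba1 by 1.28 and Crygs by 0.96). How these lists bear on the endothelial genes was not tested.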
